A study of Rattus norvegicus with 39 samples.

Results

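The livers of 5 rats dosed orally with 15 mg/kg DMN, dimethylnitrosamine, in water were compared with those of 5 rats that had 1000 mg/kg NMF, the liver toxicant N-methylformamide, injected into the peritoneum with saline as the vehicle. These are 10 of the 39 arrays of the series, chosen by the compound named in the sample labels. The abbreviations are those of the labels and the full names are background knowledge. All animals were 5 to 6 weeks old, and the left lateral lobe was frozen 48 h after treatment. RNA of each liver was hybridized to 1 Affymetrix Rat 230 2.0 array. The 9 untreated controls of the series received no vehicle and do not enter the difference between the compounds; their levels are given as a background. Compound, dose, vehicle and route differ together between the groups and cannot be told apart. Strain and sex are not given in the sources used here.

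Both compounds are oxidised in the liver largely by CYP2E1, a cytochrome P450 of the hepatocytes around the central vein. The product of dimethylnitrosamine methylates DNA, and methylated DNA is a known trigger of the p53 response. The product of N-methylformamide is a reactive carbamoylating species that is bound by glutathione, and loss of glutathione or modification of the sensor KEAP1 releases the transcription factor NRF2, which acts on detoxification genes.

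Values are log2 intensities of the probe set with the highest mean for each of 14217 named genes, and every difference is DMN minus NMF. A gene is called where limma's test, fitted to all 39 arrays with 1 mean per group, gave a Benjamini-Hochberg adjusted p below 0.05 over all 14217 genes. Arrays carry no read depth, so 5 animals per group limit the precision. The Alb level, for albumin, was 14.32 to 14.47 on the DMN arrays and 14.39 to 14.44 on the NMF arrays, as in liver. Of 27 control probe sets for Bacillus genes, which rat RNA lacks, 26 had means of 3.42 to 4.81 over the 10 arrays and 1, for the phe gene, had 6.40. Levels below 4.81 are treated as background, and printed folds are also given with the line at 6.40 where this changes them. Log2 differences are printed without such a bound. With the line at 6.40 the fold was, for example, at least 7.45 for Gpx2, 5.82 for Lama5, 5.46 for Pvt1, 3.30 for Apln and 2.76 for Rprm. A group mean was below 4.81 for 33 of the called genes and below 6.40 for 151.

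The array labelled DMN 2 was nearer to the NMF and control means than to the other DMN arrays. Its root mean square distance over all genes was 0.576 to the mean of the other 4 DMN arrays, 0.506 to the NMF mean and 0.471 to the control mean, whereas DMN 1, 3 and 4 were nearest to the other DMN arrays, at 0.404 to 0.530. DMN 5 lay farther from the other DMN arrays (0.771) than DMN 2 did, and about as far from the NMF mean (0.770) and the control mean (0.787). Limma's array weights, which are lower for arrays that vary more from their group, were lowest for DMN 5 (0.213), followed by DMN 2 (0.458). On the other side NMF 3 was nearest to the controls (0.497, against 0.521 to the other NMF arrays) and NMF 4 was nearer to the DMN mean (0.517) than to the other NMF arrays (0.531). The own-group mean rests on 4 arrays, that of the other compound on 5 and that of the controls on 9. A mean of fewer arrays is noisier and lies farther away, so these small gaps of NMF 3 and NMF 4 cannot place either array. The GAPDH 5′ probe set read 6.87 on DMN 3 and 7.08 on NMF 3 but at least 12.6 on the other 8 arrays, which is a sign of shortened or incompletely copied RNA on 1 array of each group. Among the controls it read 7.42 on control 4, 6.34 on control 5 and at least 11.59 on the others. Control 5 lay 0.766 from the mean of the other controls, and the rest lay 0.316 to 0.481 from theirs. The control ranges given below include control 4 and control 5. The actin 3′ probe set exceeded the 5′ one by 2.80 on DMN 3, 2.36 on DMN 5 and 2.38 on NMF 3, and by at most 1.18 on the other 7 arrays, so by this second sign DMN 5 stood with them. Without DMN 5, 391 genes were called higher and 202 lower, beside 426 and 236 with it. Results are therefore given with and without DMN 2, and counts also without DMN 3 and NMF 3.

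**Figure D1:**
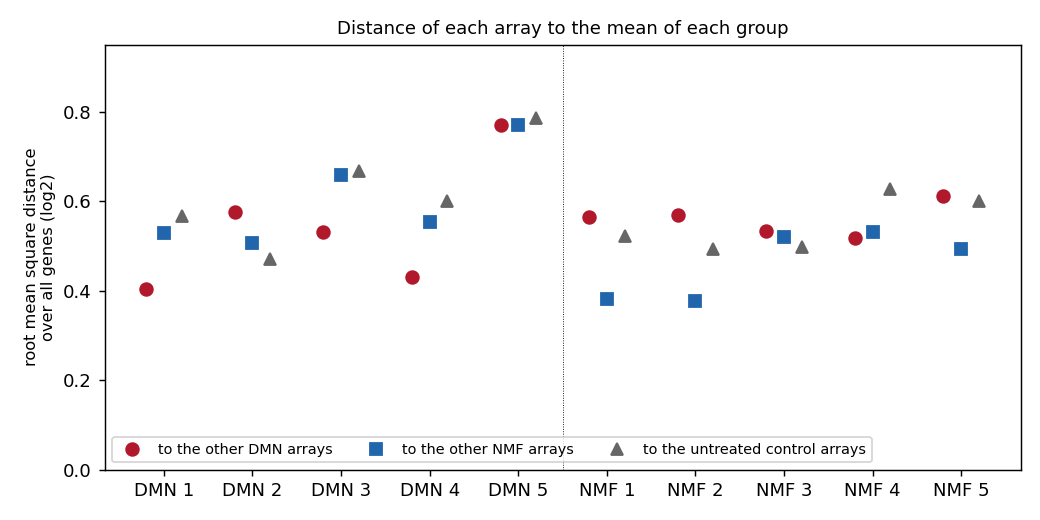
Root mean square distance (log2 units, over 14217 genes) of each DMN and NMF array to the mean of the other DMN arrays (circles), the other NMF arrays (squares) and the 9 untreated control arrays (triangles). The array labelled DMN 2 is nearest to the controls (0.471), and DMN 5 is far from all 3 means (0.770 to 0.787).

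Of the 14217 genes, 662 (4.66%) were called. The level was higher in DMN livers for 426 genes (3%) and lower for 236 genes (1.66%), and the median difference over all genes was -0.01. At least 2-fold were 254 of the higher and 78 of the lower genes. The control mean lay nearer to the NMF mean for 319 of the 426 higher genes and nearer to the DMN mean for 151 of the 236 lower genes. For 483 genes (3.4%) every DMN array lay on the same side of every NMF array, and without DMN 2 this held for 1068 genes (7.51%). Fewer arrays make such a separation easier by construction. It was not counted with any other array left out, so the rise cannot be read as a trait of DMN 2. Without DMN 2 the calls numbered 928 (6.53%), of which 599 were higher (4.21%) and 329 lower (2.31%), and 621 of the 662 remained in the same direction. With the spread estimated from the 10 arrays alone, 121 genes were higher and 65 lower, and without DMN 3 and NMF 3 the counts were 215 and 158.

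The 5 largest differences in the downward direction were those of Akr1b8, Abcc3, Gpx2, Gsta3 and Gstp1. In these detoxification genes every NMF liver was above every DMN liver. Akr1b8, an aldo-keto reductase that reduces reactive aldehydes, was measured at 6.89, 6.93, 7.27, 6.67 and 8.90 in DMN livers 1 to 5, against 12.88, 10.78, 10.55, 12.15 and 12.61 in NMF livers 1 to 5, and its 9 controls ran from 5.38 to 7.53 with a median of 5.79. Every NMF liver was above every DMN liver, and the DMN level was 22.1-fold lower, a log2 difference of -4.46 (SE 0.45, adjusted p = 1.24e-08). Within the DMN group the fifth animal was the highest and the other 4 lay inside the control range. Gstp1, the glutathione transferase of class pi, had levels of 9.08, 9.66, 8.82, 9.37 and 10.59 after DMN and 12.50, 13.05, 11.55, 13.40 and 12.95 after NMF, with controls between 7.69 and 9.62. Its difference was -3.19 (SE 0.31, adjusted p = 7.26e-09), with no overlap of the groups. Its values on DMN 2 and DMN 5 were above all controls. Nqo1, the quinone reductase often used as a readout of NRF2, was at 9.52, 10.61, 9.79, 10.09 and 9.27 after DMN and at 12.55, 12.30, 11.51, 11.96 and 12.83 after NMF, a difference of -2.38 (SE 0.33, adjusted p = 9.41e-06); all 5 DMN values fell within the control range of 8.44 to 10.80.

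Glutathione peroxidase 2 (Gpx2), which reduces hydroperoxides with glutathione, read 4.80, 4.90, 5.68, 5.22 and 6.52 in the DMN livers and 10.25, 9.21, 7.19, 9.48 and 10.37 in the NMF livers. The lowest NMF animal, the third, was still above the highest DMN animal, and the difference was -3.88 (SE 0.55, adjusted p = 1.8e-05) (-4.47 without DMN 3 and NMF 3). The prostaglandin reductase Ptgr1, which also clears reactive alkenals, gave 10.14, 11.11, 10.50, 10.51 and 9.78 after DMN and 12.63, 12.48, 12.33, 12.60 and 12.79 after NMF. Its DMN mean of 10.41 was close to its control mean of 10.42, and the difference was -2.16 (SE 0.22, adjusted p = 1.24e-08). Akr7a3, an aflatoxin aldehyde reductase, lay above its controls in all animals of both groups but DMN 5. It read 11.76, 11.76, 11.38, 11.74 and 10.25 after DMN and 13.83, 13.70, 13.43, 13.66 and 13.86 after NMF, with controls between 9.93 and 11.18. Its difference was -2.32 (SE 0.32, adjusted p = 1.07e-05), and DMN 5 alone of the DMN animals lay inside the control range.

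The bases before the start sites of Gstp1 and Gpx2 are shown because both genes were among the lowest in DMN relative to NMF and both carry the core letters of the antioxidant response element, the NRF2 binding motif, close to the start. They are RefSeq sequences of GRCr8, 5′ to 3′ on the gene's strand and ending 1 base before the start site. Capitals mark TGACNNNGC on either strand.
Gstp1: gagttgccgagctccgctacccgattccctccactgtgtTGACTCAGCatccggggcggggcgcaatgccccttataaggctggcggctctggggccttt
Gpx2: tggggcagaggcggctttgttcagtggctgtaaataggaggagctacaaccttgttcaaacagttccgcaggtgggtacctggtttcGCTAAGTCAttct
The stretches are chr1:210769706-210769805 on the - strand and chr6:101230034-101230133 on the - strand, with the motif at bases -61 to -53 and -13 to -5. Of the 250 bases before the start site of 27456 rat genes, 10.2% hold this motif. It was present in 5 of 18 glutathione transferase promoters (27.8%) and 5 of 26 promoters of the NRF2 list (19.2%), and in 1 of 12 aldo-keto reductase promoters (8.33%). Akr1b8 and Akr7a3 had no match in this window. Such matches of letters are not binding sites, and whether NRF2 acts through them in these livers was not tested.

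**Figure D2:**
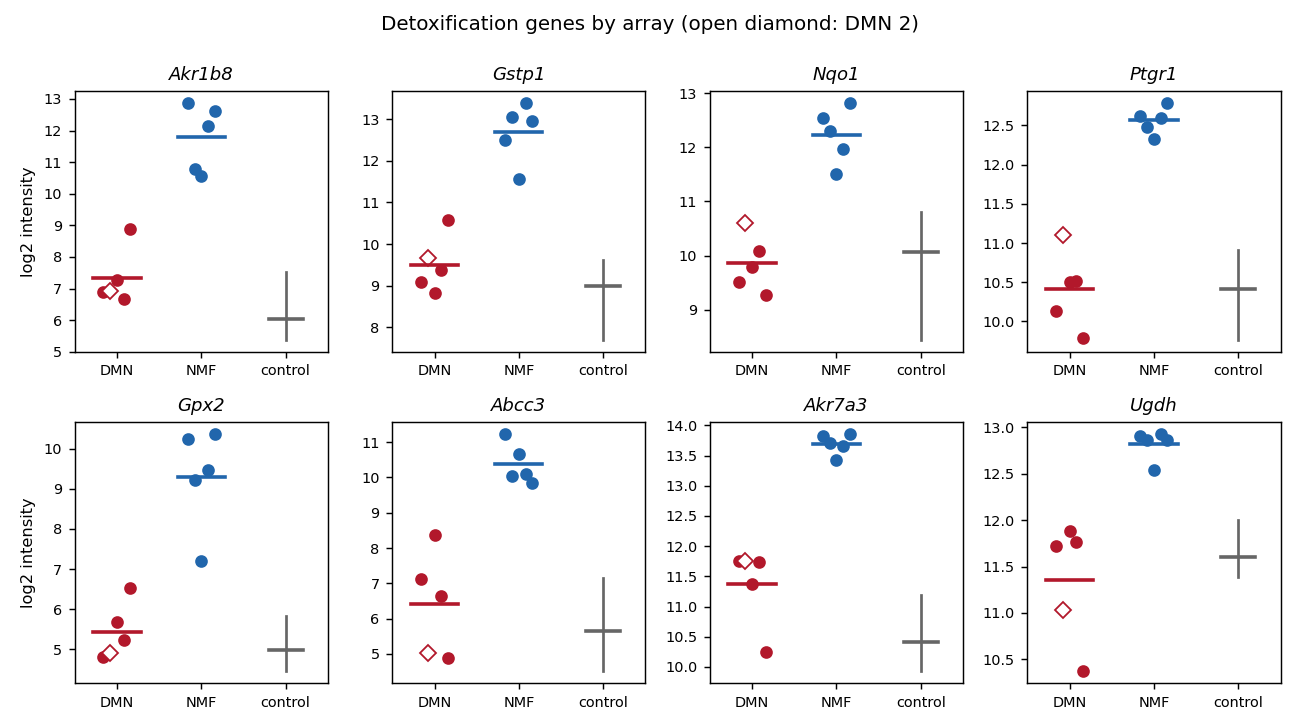
Log2 intensity of 8 detoxification genes in each of 5 DMN livers (left), 5 NMF livers (middle) and untreated controls (right). Points are animals in order of their number, bars are means, the open diamond is DMN 2, and the grey line is the range of 9 controls with its mean. In all 8 genes the lowest NMF animal is above the highest DMN animal.

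Over the list of 31 measured NRF2 target genes, 9 were lower (beside 1.66% of all genes) and 1 was higher (beside 3%) in DMN livers, with a median difference of -0.38 and 6 of 31 differences above 0. The 9 lower genes were the transporters Abcc2, Abcc3 and Abcc4, the reductases Nqo1 and Blvrb, and Gpx2, Mgst2, Gclm and Ugdh. Both group means of Abcc4 (5.05 in DMN and 6.21 in NMF) lie below 6.40, where no fold can be given. The calls of Abcc4 and Blvrb were lost with the spread of the 10 arrays alone (adjusted p = 0.104 and 0.0635). Mgst2 is also counted among the glutathione transferases. Abcc3, an export pump for conjugates on the blood side of hepatocytes, read 7.11, 5.03, 8.38, 6.64 and 4.89 after DMN and 11.23, 10.04, 10.66, 10.10 and 9.84 after NMF, a difference of -3.96 (SE 0.79, adjusted p = 0.00146). Its DMN animals spread more widely than its NMF animals, and DMN 2 and DMN 5 were near the background. Ugdh, which makes the sugar donor of glucuronidation, showed a narrower difference of -1.47 (SE 0.19, adjusted p = 3.08e-06), and Gclm, the modifier subunit of glutamate-cysteine ligase, one of -1.25 (SE 0.29, adjusted p = 0.00624). Abcc2, the export pump on the bile side, had levels of 10.64, 10.72, 10.86, 10.56 and 9.42 in DMN livers and 12.16, 12.04, 11.40, 11.89 and 11.93 in NMF livers. The one member called higher was Slc39a4, a zinc importer, at 0.81 (SE 0.21, adjusted p = 0.0129); its call was lost without DMN 4 (adjusted p = 0.0688).

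The other NRF2 targets were not called between the compounds over all 5 animals. Srxn1, which repairs oxidised peroxiredoxin, read 10.24, 8.05, 10.42, 10.32 and 10.73 after DMN and 10.49, 10.23, 9.64, 9.79 and 9.43 after NMF, and had a difference of 0.04 (SE 0.47, adjusted p = 0.994). DMN 2 was at the control level for Srxn1 (control range 7.69 to 9.25), and the other 4 DMN animals and all 5 NMF animals were above that range. Gclc, the catalytic subunit of glutamate-cysteine ligase, had means of 10.22 in DMN livers and 10.78 in NMF livers (adjusted p = 0.412), and Txnrd1, thioredoxin reductase, had 10.85 and 11.19 in DMN and NMF livers (adjusted p = 0.558). Hmox1, the haem-degrading enzyme, ran in the other direction, with 11.61, 9.54, 11.85, 11.52 and 12.33 in DMN livers, against 10.06, 10.46, 10.51, 10.33 and 9.53 in NMF livers. All DMN animals but DMN 2 were above all NMF animals; the difference of 1.19 did not pass over all 5 animals (adjusted p = 0.173) and was 1.65 (adjusted p = 0.0193) without DMN 2. Gsr, glutathione reductase, ranged from 5.31 to 9.82 in DMN livers and from 6.55 to 11.39 in NMF livers (adjusted p = 0.286), and the transcript of NRF2 itself, Nfe2l2, had an adjusted p of 0.184.

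Among 22 measured glutathione S-transferases, 6 were lower in DMN (beside 1.66% of all genes) and none was higher. Of the 22 differences 0 were above 0, and the median was -0.47. Besides Gstp1 the lower ones were Gsta3 (-3.38, SE 0.59, adjusted p = 0.000267), Gstt3 (-1.37, SE 0.26, adjusted p = 0.000984), Mgst2 (-1.01, SE 0.21, adjusted p = 0.00211), Gsta4 (-0.73, SE 0.17, adjusted p = 0.00747) and Gstm1 (-0.68, SE 0.16, adjusted p = 0.00759). Gsta3 read 7.86, 8.14, 8.90, 9.54 and 5.91 in DMN livers and 11.56, 11.21, 11.14, 11.41 and 11.93 in NMF livers, with DMN 5 the lowest. Members of this family and of the aldo-keto reductases are near-identical in parts of their sequence, so a probe set may also read its paralogs. Without DMN 2 the count was 10 lower (beside 2.31% of all genes) and the median -0.72. On the mean of the whole list, DMN 2 read 10.8, the other DMN arrays 10.1 to 10.4, the NMF arrays 10.997 to 11.332 and the controls 10.2 to 10.8. Of 15 aldo-keto reductases 4 were lower in DMN (beside 1.66% of all genes) and none higher. The 4 were Akr1b8, Akr7a3, Akr1e2 (-0.92) and Akr7a2 (-1.04). DMN 2 read 11.16 for Akr1e2 and the other DMN arrays read 9.42 to 10.16, against 10.99 to 11.26 on the NMF arrays. With the spread of the 10 arrays alone, 7 NRF2 targets, 5 glutathione transferases and 2 aldo-keto reductases were called lower.

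Among the 33 lists, mitosis had the highest share of called genes. Of 36 measured mitosis genes 22 were higher in DMN livers and none was lower, beside 3% of all genes, and 34 of 36 differences were above 0 with a median of 1.13. Ube2c, the ubiquitin-conjugating enzyme of the anaphase-promoting complex, read 10.57, 8.25, 10.35, 10.38 and 10.28 in DMN livers, against 7.21, 5.49, 5.65, 8.07 and 6.68 in NMF livers, with controls of 6.13 to 7.77. The difference was 3.35 (SE 0.52, adjusted p = 5.61e-05), or 10.2-fold, and DMN 2 was the lowest DMN animal although still above every NMF animal. Cdkn3, a phosphatase of cyclin-dependent kinases, had 9.61, 8.32, 9.51, 9.98 and 8.91 after DMN and 6.78, 5.91, 5.99, 6.75 and 6.83 after NMF, a difference of 2.82 (SE 0.41, adjusted p = 1.98e-05). For Ccnb2, a B-type cyclin, DMN 2 and DMN 5 (8.55 and 8.54) were below the other 3 animals (10.14 to 10.53), and the difference was 3.43 (SE 0.65, adjusted p = 0.000762). Cdk1, the kinase that drives entry into mitosis, read 10.48, 8.52, 10.06, 10.15 and 8.91 in DMN livers and 7.63, 6.19, 6.0, 8.36 and 7.34 in NMF livers, a difference of 2.52 (SE 0.47, adjusted p = 0.000595). Topoisomerase Top2a and the survivin gene Birc5 differed by 1.70 and 1.48 (adjusted p = 6.42e-05 and 0.00223).

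Some mitotic transcripts were near the background in NMF livers. Ccna2, cyclin A2, had an NMF mean of 4.80 and was at least 7.81-fold higher in DMN livers by its mean of 7.78, with DMN 2 and DMN 5 at 6.33 and 5.70 below the highest NMF animal at 7.28. Its call was lost without DMN 3 and NMF 3 (adjusted p = 0.0634). Mybl1, a transcription factor of the MYB family outside this list, was at least 5.9-fold higher, and the kinesin Kif20b at least 4.79-fold. With the background line at 6.40 the bounds for Ccna2, Mybl1 and Kif20b were 2.60-fold, 1.96-fold and 1.59-fold. The calls of the kinesin Kif20a (2.21, SE 0.54, adjusted p = 0.00911) and of the checkpoint kinase Bub1 (2.01, SE 0.52, adjusted p = 0.0144) were lost without DMN 3 and NMF 3, with adjusted p = 0.110 and 0.117, and that of Bub1 also without DMN 1, 3 or 4 (adjusted p = 0.0562, 0.0685 and 0.0530). Cdc20, the activator of the anaphase-promoting complex, was an exception and read 8.60 in DMN livers and 8.50 in NMF livers (adjusted p = 0.946).

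The promoters of Cdk1 and Cdkn3 are shown because CCAAT boxes and the cell cycle genes homology region TTTGAA are the known promoter elements of genes expressed in G2 and M phase. Capitals mark CCAAT and TTTGAA on either strand, in RefSeq sequence of GRCr8 ending 1 base before the start site.
Cdk1: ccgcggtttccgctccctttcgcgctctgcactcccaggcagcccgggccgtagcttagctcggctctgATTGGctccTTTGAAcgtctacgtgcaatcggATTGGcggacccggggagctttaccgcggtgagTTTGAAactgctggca
Cdkn3: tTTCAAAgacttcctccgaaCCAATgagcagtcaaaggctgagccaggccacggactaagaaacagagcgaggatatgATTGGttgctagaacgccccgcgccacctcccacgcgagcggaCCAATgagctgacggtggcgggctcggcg
They lie at chr20:19265143-19265292 and chr15:22502236-22502385, both on the + strand. Of the 36 mitosis genes 31 had a promoter in the table, and CCAAT was found in 24 of them (77.4%), beside 34.3% of all 27456 promoters. TTTGAA was found in 15 (48.4%, beside 16.03%) and both motifs in 15 (48.4%, beside 5.76%). Among the 17 called mitosis genes with a promoter, 11 (64.7%) held both. These are letter matches in 250 bases and not binding sites.

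Without DMN 2, 29 of the 36 mitosis genes were higher (beside 4.21% of all genes) and the median was 1.34. On the mean of the list DMN 2 read 6.79, the other DMN arrays 7.30 to 8.24, the NMF arrays 6.03 to 6.77 and the controls 6.13 to 6.73. Each compound's own difference from the controls, which both share, had a median over this list of 0.98 for DMN and -0.08 for NMF. The number called higher fell to 15 without DMN 3, to 10 without DMN 3 and NMF 3 and to 8 with the spread of the 10 arrays alone. Transcripts of DNA replication showed smaller differences. Of 31 measured genes 4 were higher in DMN (beside 3% of all genes) and none lower, with a median of 0.33. Without DMN 2, 7 were higher (beside 4.21% of all genes). Tyms, thymidylate synthase, differed by 1.22, the ribonucleotide reductase subunit Rrm1 by 1.18 and the replication factor C subunit Rfc4 by 1.02. None of the 4 calls remained when DMN 1, DMN 3, DMN 4, NMF 1 or NMF 2 was left out (for example, adjusted p = 0.0608, 0.102 and 0.148 for these 3 without NMF 2).

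Of 26 measured p53 target genes 6 were higher in DMN (beside 3% of all genes) and none lower, with a median of 0.47 and 19 differences above 0. Mdm2, the ubiquitin ligase that limits p53 and is induced by it, read 9.57, 8.51, 10.32, 10.53 and 9.18 after DMN and 8.30, 8.18, 8.47, 8.78 and 7.82 after NMF. DMN 2 was inside the NMF range and the other 4 DMN animals were above it; the difference was 1.31 (SE 0.29, adjusted p = 0.00443). The cyclin-dependent kinase inhibitor Cdkn1a (p21) had 11.52, 10.30, 11.95, 11.53 and 11.59 in DMN livers and 9.45, 10.24, 10.25, 9.36 and 8.76 in NMF livers, and the groups did not overlap, although DMN 2 was close to the highest NMF animal. Its difference was 1.77 (SE 0.44, adjusted p = 0.0107). Ccng1, cyclin G1, differed by 1.38 (SE 0.38, adjusted p = 0.0257), but DMN 2 and DMN 5 (9.30 and 9.67) lay below the highest NMF animal (9.83), and NMF livers were themselves above the control range of 7.78 to 8.90 in 3 of 5 animals. Phlda3 (difference 0.94) and the kinase Plk2 (0.81) were also called. Rprm, a p53-inducible mediator of G2 arrest, was called for another pattern of levels: 8.02, 7.69, 8.12, 8.43 and 7.09 in DMN livers, 5.64, 5.18, 6.39, 6.43 and 4.95 in NMF livers and 7.41 to 8.60 in controls, so that every NMF animal was below every control.

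Without DMN 2 the p53 list had 8 higher genes (beside 4.21% of all genes), the 2 further ones being Zmat3 (0.74, adjusted p = 0.0177) and the nuclease Aen (0.90, adjusted p = 0.0243). The calls of Ccng1, Phlda3 and Plk2 were lost without DMN 4 (adjusted p = 0.101, 0.0616 and 0.0575), and those of Ccng1 and Phlda3 also when DMN 1, DMN 3, NMF 2 or NMF 5 was left out. Leaving out NMF 1 likewise ended the call of Ccng1 (adjusted p = 0.101), and leaving out NMF 3 that of Phlda3 (adjusted p = 0.0661). Only Rprm and Cdkn1a were called with the spread of the 10 arrays alone. Of 14 measured genes of alkylation and base excision repair, 1 was called (7.14%, near the 4.66% of all genes). It was Lig1, DNA ligase I (difference 0.81), and its call was lost when DMN 1, 3 or 4 or NMF 1, 2, 3 or 5 was left out (adjusted p of at most 0.124). A second probe set of Lig1 gave -0.19 and was not called. Mgmt, which removes methyl groups from guanine, read 10.13, 9.94, 10.52, 10.60 and 10.69 after DMN and 9.74, 8.76, 9.97, 10.08 and 10.43 after NMF and every animal but NMF 2 was above the control range of 8.36 to 8.90. The difference of 0.58 was not called (adjusted p = 0.270).

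**Figure D3:**
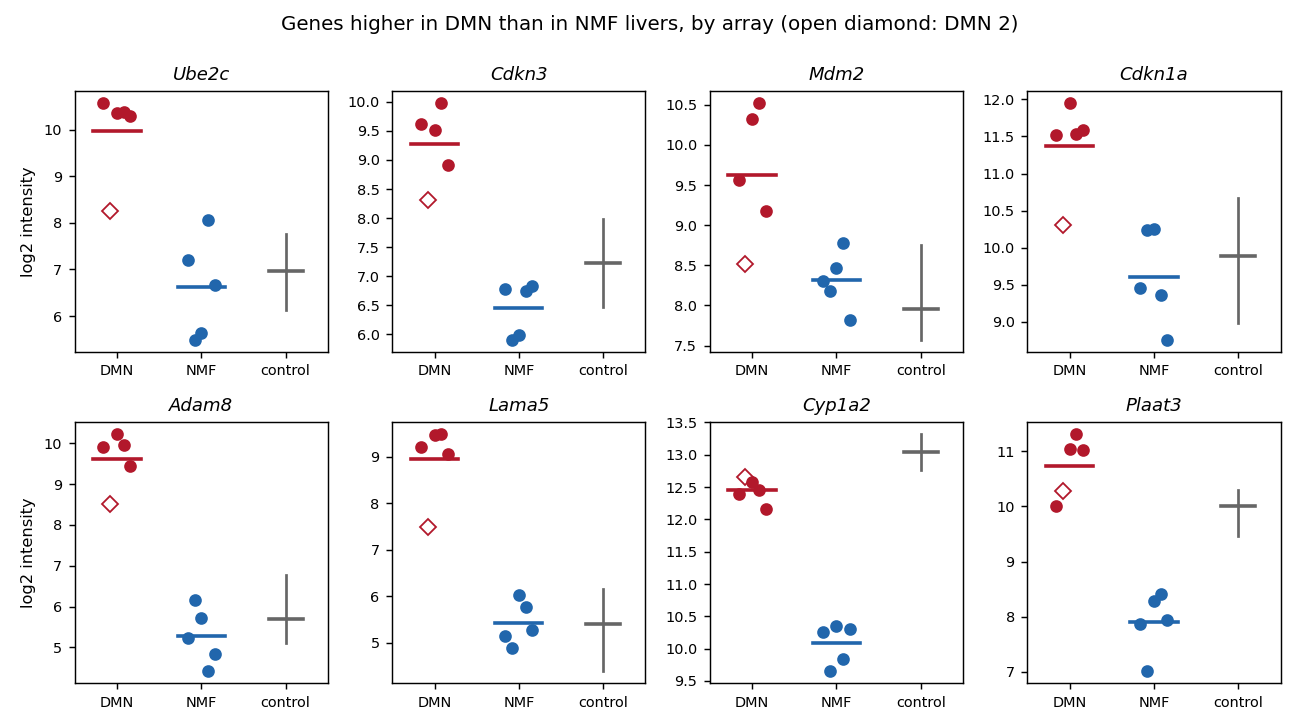
Log2 intensity of 8 genes higher in DMN livers (left) than in NMF livers (middle), with untreated controls (right), drawn as animals in order of their number, group means and, for 9 controls, range and mean. The open diamond, DMN 2, is the lowest DMN animal for Ube2c, Cdkn3, Mdm2, Cdkn1a, Adam8 and Lama5, and the highest for Cyp1a2.

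In a second set of upward calls the NMF livers were far below the controls and the DMN livers were nearer to them. Cyp1a2, a P450 that oxidises aromatic amines, had the smallest adjusted p of the named genes: it read 12.40, 12.66, 12.58, 12.46 and 12.15 in DMN livers and 10.26, 9.65, 10.35, 9.84 and 10.30 in NMF livers, with controls at 12.77 to 13.32. The difference was 2.37 (SE 0.15, adjusted p = 8.44e-14), or 5.17-fold, and every animal of both groups was below every control. Cyp2c13, a male-pattern P450, showed 13.09, 13.28, 12.93, 13.0 and 12.39 after DMN and 10.10, 11.74, 11.89, 11.03 and 10.14 after NMF, a difference of 1.96 (SE 0.24, adjusted p = 9.54e-07), although its paralogs may share probes. Rgn, regucalcin, a calcium-binding protein of hepatocytes around the central vein, had 11.52, 12.68, 11.65, 11.90 and 9.64 after DMN and 8.87, 8.81, 9.99, 9.69 and 9.09 after NMF, and DMN 5 was the only DMN animal within the NMF range. Its difference was 2.19 (SE 0.32, adjusted p = 2.56e-05). Car3, a carbonic anhydrase that depends on growth hormone, differed by 2.67 (SE 0.60, adjusted p = 0.00498), with controls at 13.33 to 13.75 above all NMF animals. Plaat3, a phospholipase, and C6, complement component 6, were called with 2.83 (SE 0.26, adjusted p = 1.79e-09) and 2.78 (SE 0.32, adjusted p = 4.26e-07), and in both the control mean was nearer to the DMN mean than to the NMF mean (DMN means 10.73 and 10.52, control means 10.01 and 10.50). The uptake transporter Slco1a4 differed by 1.88 (SE 0.31, adjusted p = 0.000131).

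By list, 4 of 28 xenobiotic P450 genes were higher in DMN and 2 lower, beside 3% and 1.66% of all genes. Without DMN 2 the counts were 4 higher and 6 lower, beside 4.21% and 2.31% of all genes. Without DMN 3 and NMF 3 they were 3 higher and 0 lower, beside 215 and 158 of all 14217 genes. Cyp3a2 was among the higher (1.32; DMN 5 read 11.43 and the other DMN animals 12.72 to 12.98, and the call was lost without DMN 3, DMN 4, NMF 1 or NMF 5, adjusted p of at most 0.0763) and Cyp2j4 among the lower (-1.04, SE 0.24, adjusted p = 0.00679). Cyp2e1, the enzyme that activates both compounds, read 13.07, 13.40, 13.12, 12.71 and 11.31 in DMN livers and 13.09, 13.19, 13.18, 12.59 and 13.08 in NMF livers, and the difference of -0.30 was not called (adjusted p = 0.655). Pericentral hepatocyte genes gave 3 higher of 17 and periportal ones 1 higher (Hsd17b13, 1.12, SE 0.21, adjusted p = 0.000812) and 1 lower (Gls2, the glutaminase of periportal cells, -0.90, SE 0.20, adjusted p = 0.00423). Both zonal lists had medians near 0, at 0.16 and -0.06. On the mean of the pericentral list DMN 2 read 10.2, inside the control range of 10.1 to 10.6, the other DMN arrays 8.99 to 9.66 and the NMF arrays 8.96 to 9.39, so that this list put both compounds below the controls on all arrays but DMN 2. In bulk tissue, fewer cells of a type and less RNA per cell cannot be told apart.

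Lipid genes moved in both directions. Scd, the desaturase that makes oleate, read 11.01, 11.17, 9.78, 11.40 and 9.99 after DMN and 8.30, 8.11, 7.77, 8.46 and 7.68 after NMF, and all 10 values lay below the lowest control at 12.01. The difference was 2.60 (SE 0.37, adjusted p = 1.98e-05). Its relative Scd2 differed by 1.80 (SE 0.32, adjusted p = 0.000372), while a second, dim probe set of Scd2 gave -0.48 and was not called. Limma called 0 of 20 cholesterol synthesis genes and 0 of 13 bile acid synthesis genes, with 2 and 4 of them at an unadjusted p below 0.05. Of 24 genes of fatty acid synthesis 2 were higher and 1 lower in DMN, beside 3% and 1.66% of all genes. Among 27 PPARA targets and fatty acid oxidation genes 5 were lower in DMN (beside 1.66% of all genes) and none higher. The median was -0.37, with 3 differences above 0. Cpt2, the inner-membrane carnitine acyltransferase, had 9.97, 10.26, 9.57, 9.74 and 9.08 in DMN livers and 11.06, 10.78, 10.40, 10.91 and 10.56 in NMF livers, with controls of 9.41 to 10.30; the groups did not overlap and the difference was -1.02 (SE 0.19, adjusted p = 0.000812). The peroxisomal enzyme Ehhadh differed by -1.46 (SE 0.35, adjusted p = 0.00747), with DMN 5 the lowest at 7.69 and with the NMF mean of 11.35 near the control mean of 11.46. None of these 5 was called with the spread of the 10 arrays alone.

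Other genes lower in DMN than in NMF were Acsm2, a medium-chain acyl-CoA synthetase (7.23, 7.48, 7.87, 8.08 and 6.04 in DMN livers and 10.35, 9.56, 10.96, 8.86 and 10.86 in NMF livers, difference -2.78, SE 0.53, adjusted p = 0.000928), and Slc17a3, an organic anion transporter (-1.98, SE 0.38, adjusted p = 0.000988, and -1.36 without DMN 5, which read 6.90). Ptger3, a prostaglandin E2 receptor, differed by -1.89 (SE 0.32, adjusted p = 0.000180), Rasa3, a Ras GTPase-activating protein, by -1.80 (SE 0.27, adjusted p = 3.43e-05) and Ccdc163 by -1.82 (SE 0.34, adjusted p = 0.000747). Nr1i3, which encodes the xenobiotic receptor CAR, read 7.69, 9.62, 7.33, 7.77 and 6.33 after DMN and 9.93, 9.64, 8.96, 9.71 and 10.06 after NMF, a difference of -1.91 (SE 0.42, adjusted p = 0.00423). DMN 2 was at 9.62, inside the NMF range, and the other 4 DMN animals were below every NMF animal, with controls between 6.78 and 9.03. Hepatocyte identity genes otherwise gave no call, and the median of their 17 differences was 0.10. Siglec5, an immune cell lectin at the background in DMN livers (mean 4.09), was at least 2.25-fold lower, though both group means lie below 6.40, where no fold can be given, and its call was lost when DMN 1, 3, 4 or 5 or NMF 1, 3 or 4 was left out (adjusted p of at most 0.0755).

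Some transcripts of neutrophils, macrophages and the acute phase were higher in DMN livers, and for several of them DMN 2 was at the NMF level. Adam8, a membrane protease of myeloid cells, had the largest difference of all called genes in this direction: it read 9.92, 8.51, 10.23, 9.95 and 9.44 in DMN livers, against 5.22, 6.16, 5.72, 4.42 and 4.83 in NMF livers, with controls of 5.10 to 6.77. The difference was 4.34 (SE 0.52, adjusted p = 8.6e-07), or 20.3-fold (at least 9.24-fold with the background line at 6.40), with all 5 DMN animals above all others; a second, dim probe set gave -0.19 and was not called. Lcn2, lipocalin 2, an iron-sequestering protein of neutrophils and injured hepatocytes, read 12.99, 8.0, 12.49, 12.69 and 13.19 in DMN livers and 8.03, 6.65, 7.18, 8.89 and 7.54 in NMF livers. DMN 2 was within the NMF and control ranges and the other 4 DMN animals were above all NMF animals and controls. The difference was 4.21 (SE 1.02, adjusted p = 0.00867) and was 5.18 without DMN 2, and the call was lost without DMN 3 and NMF 3 (adjusted p = 0.0584). The calprotectin genes S100a8 and S100a9, abundant in neutrophils, likewise put DMN 2 inside the NMF range, with 10.48, 7.05, 11.28, 10.65 and 12.11 for S100a9 in DMN livers and 7.40, 7.27, 8.85, 6.87 and 7.0 in NMF livers. Their differences were 2.59 and 2.84 over all animals (adjusted p = 0.00117 and 0.00242) and 3.33 and 3.65 without DMN 2. With the spread of the 10 arrays alone neither was called (adjusted p = 0.0993 and 0.101). A2m, the acute phase antiprotease of the rat, differed by 2.89 (SE 0.77, adjusted p = 0.0197), and its call was lost without DMN 3, DMN 5, NMF 1 or NMF 5 (adjusted p = 0.0820 without DMN 5).

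Of 13 measured neutrophil genes 5 were higher in DMN and none lower; 5 of 20 macrophage genes, 5 of 27 acute phase genes, 3 of 26 interferon response genes, 4 of 28 chemokine and signal genes and 1 of 21 lymphocyte genes were higher, and none of these lists had a lower gene. Over all genes 3% were higher, and the lymphocyte share, 1 of 21, was near that. The mean of the interferon list was 9.82 on DMN 3 and 7.94 to 8.51 on the other DMN arrays. It was 7.73 to 8.44 on NMF arrays and 8.12 to 9.02 on controls. The median difference of this list was 0.52, and 0.24 without DMN 3. The mean of the chemokine list was 8.36 on DMN 5, 7.29 to 7.74 on the other DMN arrays and 7.14 to 7.49 on NMF arrays. Lcn2 is counted among both the neutrophil and the acute phase genes. On the mean of the neutrophil list DMN 2 read 6.32, the other DMN arrays 7.31 to 7.93, the NMF arrays 5.82 to 6.26 and the controls 6.00 to 6.43. Lyz2, lysozyme of myeloid cells, read 12.99, 11.61, 13.12, 12.73 and 12.72 after DMN and 10.89, 10.04, 10.38, 11.89 and 10.71 after NMF, a difference of 1.85 (SE 0.27, adjusted p = 2.11e-05). Aif1, a macrophage actin-binding protein, differed by 1.43 (SE 0.27, adjusted p = 0.000762) and the lysosomal protease Ctss by 0.79 (SE 0.18, adjusted p = 0.00590), and the Ctss call was lost without DMN 3 and NMF 3 (adjusted p = 0.0789). Clec4f, the lectin of resident Kupffer cells, had means of 11.02 in DMN livers and 11.05 in NMF livers, both below the control mean of 11.74, with an adjusted p of 0.978 between the compounds. The macrophage list had 9 higher genes without DMN 2, but 3 without DMN 3, DMN 5, NMF 1 or NMF 2, 2 without DMN 3 and NMF 3, and 1 with the spread of the 10 arrays alone. The immunoproteasome subunits Psmb8 and Psmb9 were higher by 1.23 (SE 0.20, adjusted p = 0.000128) and 1.32 (SE 0.24, adjusted p = 0.000578), and here DMN 2 (10.89 and 10.99) lay among the other DMN animals. Limma called 0 of 31 genes of the proteasome list, 2 of which had an unadjusted p below 0.05.

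Matrix and stellate cell transcripts gave 9 higher genes of 34 (beside 3% of all genes) and none lower. The median was 0.53, and 32 of 34 differences were above 0. Lama5, a laminin chain of basement membranes, read 9.20, 7.49, 9.46, 9.49 and 9.07 after DMN and 5.15, 4.88, 6.03, 5.77 and 5.27 after NMF, a difference of 3.52 (SE 0.47, adjusted p = 6.42e-06), although a second, dim probe set gave -0.22 and was not called. Tagln, transgelin of contractile cells, had 9.42, 8.62, 8.78, 8.49 and 10.59 in DMN livers and 7.29, 5.80, 6.66, 7.22 and 6.82 in NMF livers, a difference of 2.42 (SE 0.43, adjusted p = 0.000311). Ccn2, a growth factor of fibrosis, differed by 2.20 (SE 0.52, adjusted p = 0.00747), with DMN 2 at 6.55 inside the NMF range, and vimentin (Vim) by 1.46 (SE 0.32, adjusted p = 0.00359). Fbn1, fibrillin, differed by 1.08 (SE 0.17, adjusted p = 7.11e-05) with DMN 2 among its group, and the protease inhibitor Timp2 by 1.09 (SE 0.25, adjusted p = 0.00674). Neither Col1a1 nor Acta2, which mark activated stellate cells, was called (Col1a1 difference 0.85, adjusted p = 0.241; Acta2 difference 0.30, adjusted p = 0.863). The list mean was 8.26 to 8.88 on DMN arrays, 7.72 to 7.90 on NMF arrays and 8.02 to 8.60 on controls, so NMF livers were below the controls and DMN livers overlapped them. Of 17 measured endothelial genes 1 was higher and 1 lower in DMN, beside 3% and 1.66% of all genes. The median was 0.12, and without DMN 2 the counts were 1 and 3, beside 4.21% and 2.31% of all genes. The higher one, Lyve1, a hyaluronan receptor, differed by 0.72 (SE 0.20, adjusted p = 0.0299), and its call was lost without DMN 2 (adjusted p = 0.0832), as without DMN 3, DMN 5, NMF 1 or NMF 2. The lower one, Stab2, the hyaluronan scavenger receptor of sinusoidal endothelium, was at 7.93, 9.36, 7.21, 7.27 and 7.34 after DMN and 9.70, 9.64, 9.62, 9.19 and 9.69 after NMF, a difference of -1.74 (SE 0.34, adjusted p = 0.000907), with DMN 2 alone of the DMN animals inside the NMF range. Whether numbers of myeloid, stellate or endothelial cells contribute to these differences, or to those of the mitosis list, was not tested.

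A few transcripts of platelets and red cell precursors were also higher in DMN livers. Pf4, platelet factor 4, read 10.23, 7.69, 10.67, 9.95 and 11.84 after DMN and 6.21, 6.33, 6.48, 7.0 and 5.92 after NMF; its difference was 3.69 (SE 0.53, adjusted p = 1.98e-05), and 4.28 without DMN 2. Alas2, the haem synthesis enzyme of red cell precursors, had 9.88, 8.24, 10.39, 9.36 and 11.43 in DMN livers and 6.62, 5.99, 6.97, 7.06 and 7.08 in NMF livers, a difference of 3.12 (SE 0.40, adjusted p = 3.08e-06), and Hbb, beta globin, differed by 1.83 (SE 0.28, adjusted p = 3.43e-05). Control levels of Alas2 ran from 7.69 to 9.65, above every NMF animal, and 3 of the 5 DMN animals lay above all controls. Npy, which encodes neuropeptide Y, differed by 2.97 (SE 0.35, adjusted p = 7.54e-07), with DMN 5 highest at 11.77. Of 10 measured erythroid genes 3 were higher (beside 3% of all genes) and none lower, with a median of 0.22. The part of blood left in the frozen lobe in these values was not tested. Further large differences concerned Apln, the peptide apelin (2.89, SE 0.44, adjusted p = 4.49e-05), the long noncoding RNA Pvt1 (2.89, SE 0.43, adjusted p = 2.63e-05) and Poteml2 (2.87, SE 0.43, adjusted p = 3.44e-05).

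Stress genes outside the NRF2 list gave 1 call of 14 heat shock genes, 3 of 29 endoplasmic reticulum stress genes and 2 of 31 cell death regulators, beside 4.66% of all genes. The small heat shock protein Cryab read 10.83, 7.65, 11.21, 11.10 and 10.82 in DMN livers and 7.08, 6.89, 7.47, 7.97 and 7.23 in NMF livers, a difference of 2.99 (SE 0.45, adjusted p = 3.36e-05), or 3.66 without DMN 2, and was the called heat shock gene. Ddit3 (CHOP), a transcription factor of the unfolded protein response, differed by 1.57 (SE 0.37, adjusted p = 0.00747) and the oxidase Ero1a by 1.34 (SE 0.31, adjusted p = 0.00616), both with DMN 5 the highest, while the chaperone cofactor Sdf2l1 differed by -0.87 (SE 0.19, adjusted p = 0.00341). These 3 were the called endoplasmic reticulum stress genes, and both called cell death regulators were higher in DMN.

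**Figure D4:**
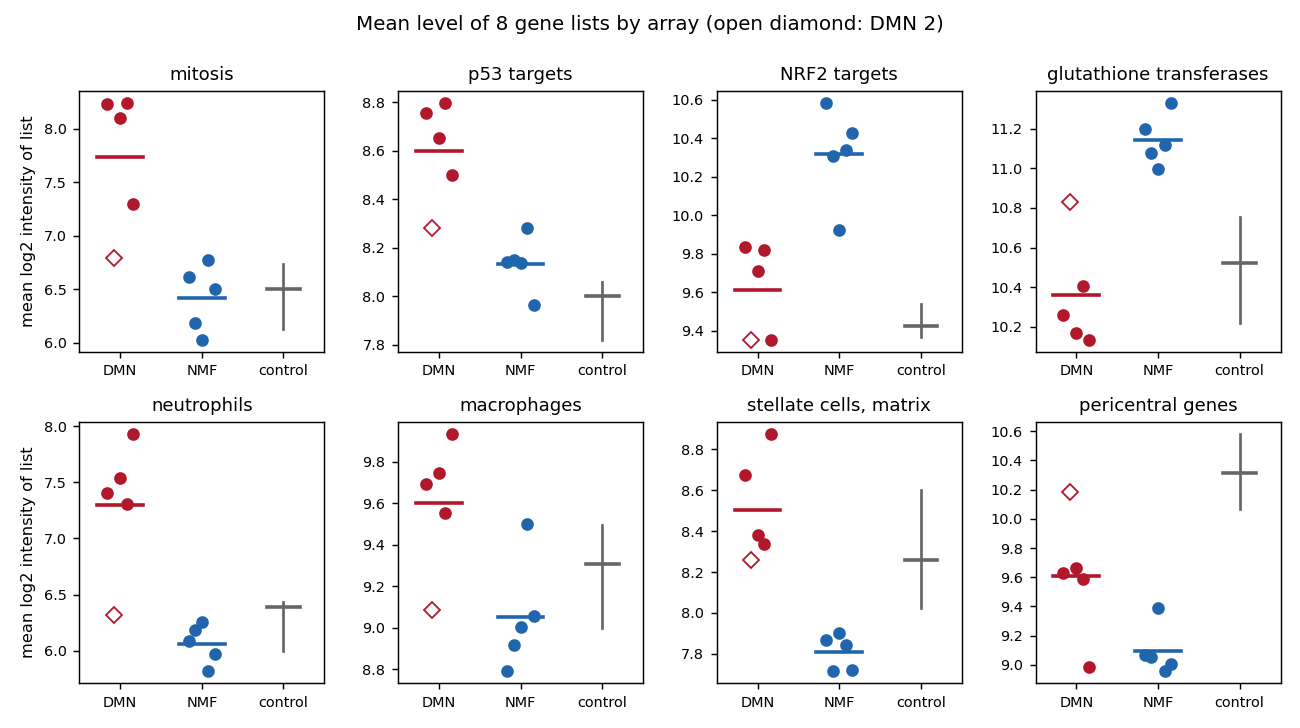
Mean log2 intensity over the measured members of 8 gene lists on each DMN array (left), NMF array (middle) and over untreated controls (right, range and median of 9 arrays). Bars are group means and the open diamond is DMN 2, which is the DMN array closest to the NMF arrays for mitosis, p53 targets, glutathione transferases, neutrophils, macrophages and matrix, and lies inside the control range for pericentral genes.

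**Figure D5:**
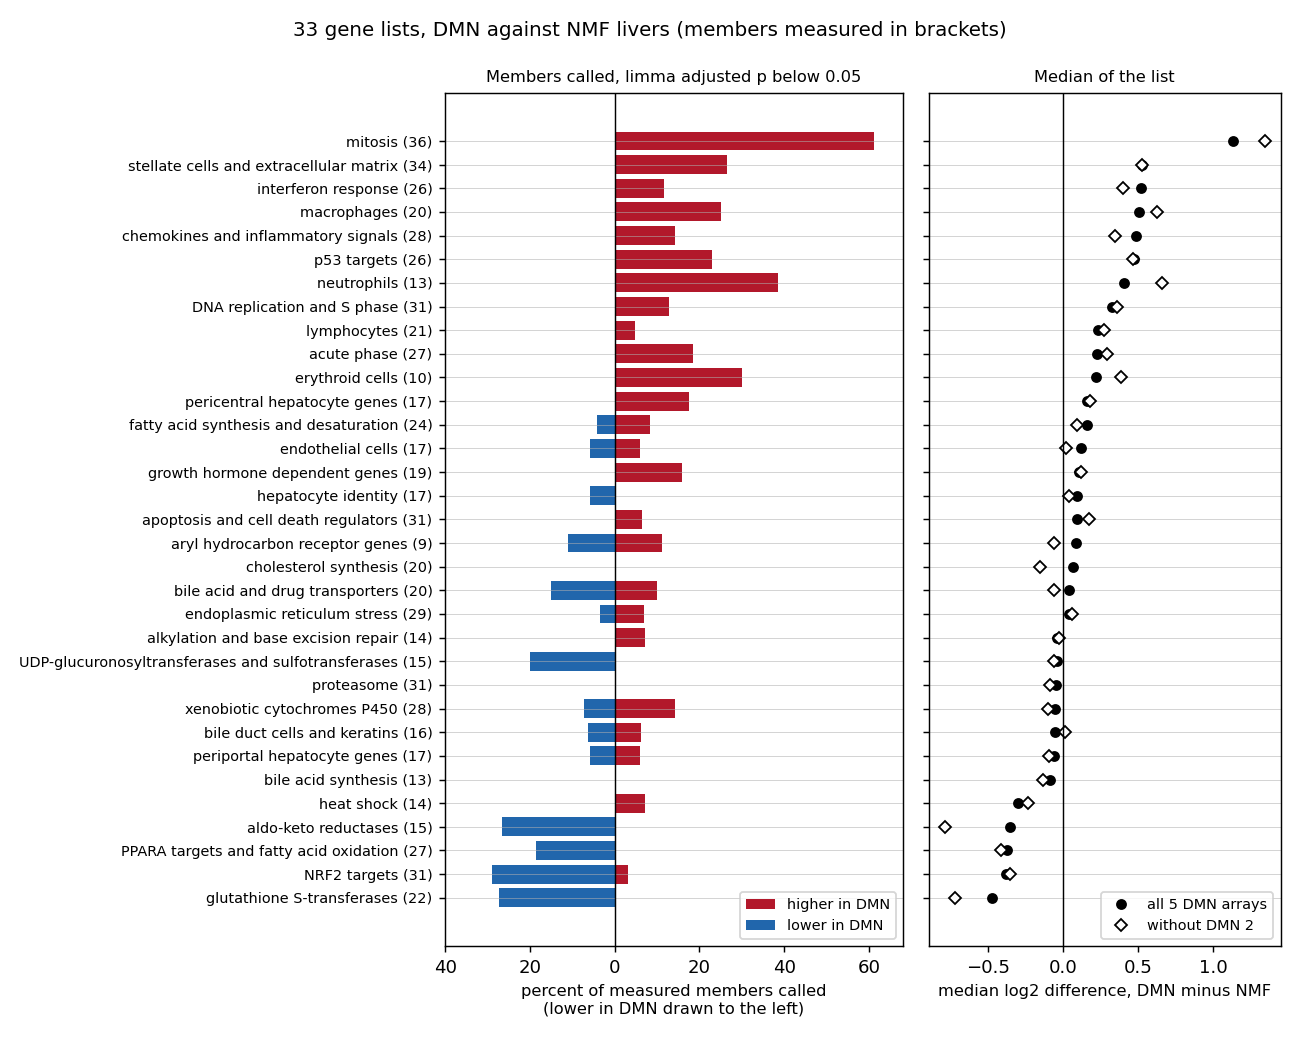
Left, percent of measured members of each of 33 gene lists called higher (right of 0) or lower (left of 0) in DMN livers; right, median log2 difference of each list with all 5 DMN arrays (filled) and without DMN 2 (open). Mitosis stands at the top with 22 of 36 higher and a median of 1.13, and glutathione S-transferases at the bottom with 6 of 22 lower and a median of -0.47.

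The array labelled DMN 2 differed from its group in single genes as well. Of the 662 called genes it was the DMN array nearest to the NMF side for 367, whereas each of the other 4 DMN arrays was so for 51 to 114. Leaving it out removed 41 calls and added 307. Among the removed, the largest differences were those of Nrep, a neuronal regeneration protein, which read 8.54, 11.07, 8.25, 8.37 and 7.60 in DMN livers and 7.09, 6.77, 7.52, 7.22 and 5.69 in NMF livers, with controls of 10.77 to 12.11, and of Fmo1, a flavin-containing monooxygenase, with 7.57, 10.74, 8.03, 7.82 and 6.25 in DMN livers, 5.89, 6.27, 7.87, 5.85 and 5.32 in NMF livers and 10.31 to 11.33 in controls. In both genes only DMN 2 lay inside the control range, and the adjusted p without it was 0.117 and 0.169. Slfn5, Acot2 and Csad were lost as well (adjusted p = 0.0647, 0.114 and 0.0527). Among the added, Egln3, an oxygen-sensing prolyl hydroxylase, read 5.62, 4.38, 7.71, 7.56 and 8.65 in DMN livers and 4.80, 4.78, 5.41, 4.40 and 5.52 in NMF livers, and its difference was 2.40 without DMN 2 (adjusted p = 0.00483). The stress transcription factor Atf3 had 9.44, 5.55, 8.80, 7.41 and 11.50 in DMN livers and 7.26, 8.07, 7.41, 6.63 and 5.98 in NMF livers, and differed by 2.22 without DMN 2 (adjusted p = 0.0348). Igsf6, Pla2g2a and Ly6i were gained with differences of 2.25, 2.05 and 1.95.

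Several genes are read by more than 1 probe set, and averaging these changed some values. The calls of Car3, Fbn1, Scd2, Timp2 and Lig1 were not made on the mean of all probe sets (adjusted p = 0.0836, 0.0717, 0.0706, 0.478 and 0.321). Those of Car3, Fbn1 and Ero1a were not made with the most variable probe set of each gene (adjusted p = 0.480, 0.867 and 0.340). Averaging left Adam8, Lama5, Apln, Aif1, Ptger3 and Rasa3 called, with smaller differences of 2.07, 1.24, 1.65, 0.83, -1.20 and -0.93.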

How the data were processed

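The authors deposited 1 table of linear intensities per probe set (lowest 5.4, highest 23152.1) for 39 Affymetrix Rat 230 2.0 arrays. The submitters' processing notes name RMA and affy with no version. RMA usually ends in log2 values, and how the deposited values came back to a linear scale is not given in the sources used here; the log2 was taken here. Arrays shared a mean intensity of 348 to 358 over the 10 DMN and NMF arrays.

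Of 31099 probe sets, 20826 have 1 gene symbol in the platform table, 436 several and 9780 none; 57 are controls. Symbols were updated through the rat gene table (GRCr8) for 20758 and kept for 68. Each of the 14217 genes was read by its probe set with the highest mean.

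Groups came from the sample titles, and the titles call the animals of a group biological replicates. Limma 3.58.1 (R 4.3.3) was fitted with 1 mean per group over all 39 arrays and Benjamini-Hochberg adjustment over all genes, and was tested on simulated data. The background line is the highest mean of the 12 Bacillus control probe sets of the newer design on the array. The 15 of the older design were left out of it; 14 of these lie below the line and 1 above, and the higher line is an alternative added after seeing the data. The gene lists, and the comparison itself, were chosen with earlier results of these data known; lists are therefore described by counts and medians, with no test of their own. Genes were named by rule: 15 per direction by size of difference among called genes with non-overlapping groups, 4 per list by adjusted p, 5 each lost and gained without DMN 2, and other list members by their role.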

Additional observations from a re-analysis of the deposited data

Results flagged for a closer look

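Within each group of 5 animals, the distance of the most extreme animal to its neighbour was compared with the range of the group, by Dixon's 95% critical value of 0.71. Of 234 groups (117 named genes on both compounds), 24 exceeded it. Chance gives about 1 in 20 for independent groups, but these share the same 10 arrays, and some genes were named for how DMN 2 changed their call or for groups that do not overlap, so the count cannot be read against that share.

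The array labelled DMN 2 accounted for 9 of them, namely Srxn1 (lowest at 8.05, others 10.24 to 10.73), Ube2c (lowest at 8.25, others 10.28 to 10.57), Cdkn1a (lowest at 10.30, others 11.52 to 11.95), Lcn2 (lowest at 8.0, others 12.49 to 13.19), Lyz2 (lowest at 11.61, others 12.72 to 13.12), Vim (lowest at 9.91, others 11.38 to 11.59), Lama5 (lowest at 7.49, others 9.07 to 9.49), Cryab (lowest at 7.65, others 10.82 to 11.21), Nrep (highest at 11.07, others 7.60 to 8.54). DMN 5 stood out in 6, namely Akr1b8 (highest at 8.90, others 6.67 to 7.27), Akr7a3 (lowest at 10.25, others 11.38 to 11.76), Gclm (lowest at 9.39, others 10.25 to 10.38), Abcc2 (lowest at 9.42, others 10.56 to 10.86), Cyp3a2 (lowest at 11.43, others 12.72 to 12.98), Ptger3 (lowest at 5.44, others 7.48 to 7.71). NMF 4 was the outlying array in 5, namely Mgst2 (lowest at 11.99, others 12.25 to 12.34), Bub1 (highest at 5.91, others 4.74 to 4.96), Mybl1 (highest at 5.66, others 3.92 to 4.31), Cyp2e1 (lowest at 12.59, others 13.08 to 13.19), Stab2 (lowest at 9.19, others 9.62 to 9.70). NMF 3 was so in 3, namely Ugdh (lowest at 12.54, others 12.86 to 12.93), S100a9 (highest at 8.85, others 6.87 to 7.40), Ddit3 (highest at 7.89, others 6.92 to 6.96). NMF 1 was so in 1, Lyve1 (lowest at 9.61, others 10.13 to 10.34).

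The 8 genes low on DMN 2 include Ube2c of the mitosis list, the p53 target Cdkn1a, the NRF2 target Srxn1 and the heat shock gene Cryab. The others are Lcn2 of the neutrophil and acute phase lists, Lyz2 of the macrophage list, and Vim and Lama5 of the stellate cell and matrix list. For Nrep this array alone was at the control level. The GAPDH 5′ signal of NMF 3 was low, as given above. Its part in the NMF 3 values was not tested.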

How the results depend on the processing

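Counts of genes higher and lower in DMN than in NMF were 426 and 236. Leaving out single arrays gave 265 (without DMN 3) to 599 (without DMN 2) higher genes and 157 (without NMF 1) to 329 (without DMN 2) lower genes. Without DMN 3 and NMF 3, chosen after seeing their GAPDH 5′ signal, 215 and 158 were called. Without DMN 2, ANIT 3 and Roziglitazone 2 the counts were 649 and 379, with array weights 1065 and 794, with the 10 arrays alone 121 and 65, and at 2-fold or more 254 and 78; the causes were not tested, beyond the smaller number of arrays and the added condition that these settings hold by construction. Median centring, a second quantile normalization, an offset of 16, leaving out the dimmest 30% of genes, other probe set rules and a trended robust prior gave 372 to 458 and 193 to 281. Of 106 called genes named by the rule, 50 were called in every alternative that included them, 56 were lost in at least 1 and 0 changed direction. Leaving out the dimmest 30% of genes kept 94 of the 106, all of them called, and the others were not tested there. The labels number the animals in each group, but a shared number is not said to mark a pair: residuals of same-numbered arrays correlated at -0.06 to 0.66, above 0.1 in 4 of 5 pairs and in 5 of 20 unlike pairs. With the number as a replicate block, 432 and 249 genes were called over all arrays and 320 and 172 over the 10 arrays alone. A group mean lay below the background line of 4.81 for 33 called genes, and for 151 with the line at 6.40, chosen after seeing the data.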

Other observations

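The mean of the list of growth hormone dependent genes was mostly below the controls under both compounds. The mean over 19 such genes was 10.1 to 11.5 on DMN arrays, 10.2 to 10.7 on NMF arrays and 11.4 to 12.0 on controls, with DMN 2 the only array of either compound inside the control range. Between the compounds 3 of the 19 were called by limma, all higher in DMN (beside 3% of all genes), and 0 lower. At an unadjusted limma p below 0.05, 6 were higher and 1 lower. The bile duct list had a mean of 7.74 to 8.35 on DMN arrays, 7.70 to 8.09 on NMF arrays and 7.45 to 7.80 on controls. It had 1 higher and 1 lower gene of 16, beside 3% and 1.66% of all genes. Among the 9780 probe sets with no gene symbol, fitted apart, 29 were higher and 18 lower in DMN (0.481%).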
